A study of Mus musculus with 11 samples.

Results

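The genes described here encode drebrin (Dbn1), the drebrin-like protein Dbnl, the fascins Fscn1 and Fscn3, the actin-depolymerising proteins cofilin (Cfl1) and destrin (Dstn), and 3 actin regulators of developing sperm, Actl7a, Actl7b and Capza3. They are the 9 genes of the 23074 in the count table that carry these symbols in the GENCODE M21 annotation. Dbn1 and Fscn1 were chosen by their change in the comparison described here, so their values are given as a description without a test. The other 7 genes were added as their relatives in the actin cytoskeleton.

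Testis RNA was sequenced from 5 wild type and 6 Rfx2-/- mice at postnatal day 21 (P21), on a mixed C57BL/6, 129/Sv and FVB/N background. The testes were decapsulated, so the RNA came from germ cells and somatic cells together. RFX2 is a transcription factor of the RFX family, which binds a DNA motif called the X-box. In the Rfx2-/- mice exon 7, which codes for much of the DNA-binding domain, had been removed in every tissue by a Cre recombinase driven by the beta-actin promoter. The study describes a mixed background line whose allele kept its neomycin cassette and a line without it on C57BL/6, and the labels name the mixed background only. The labels do not say more on how the mice were related, so the tests measure the spread between these mice.

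Actin filaments are built, bundled, capped and cut by sets of proteins that compete for the same filament. Drebrin lies along the side of filaments and is best known from the dendritic spines of neurons, and in the testis it has been described at the ectoplasmic specialization, the actin-rich junction by which Sertoli cells hold spermatids. Fascin packs filaments into tight parallel bundles, cofilin and destrin cut and depolymerise them, and capping protein closes their fast-growing end. Actl7a, Actl7b, Capza3 and Fscn3 are known as genes of spermatids, where actin underlies the acrosome and the shaping of the head.

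Between 22232097 and 29769483 reads were counted on genes in each library. Values are CPM, the counts of a gene after all libraries were brought to a common size with the TMM factors of edgeR, and a count of 3, used as the floor, corresponds to 0.0852 to 0.139 CPM. This floor covers counting error only. Rfx2 itself ranged from 191 to 472 CPM over the wild type and from 282 to 324 CPM over the Rfx2-/- mice, and since its count covers all exons and only exon 7 is deleted, it does not check the genotype labels. A gene was called when edgeR's quasi-likelihood test stayed at or under 0.01 after Benjamini-Hochberg adjustment over the 15745 tested genes, at any fold change. By this rule 1.94% of the tested genes were called lower and 0.730% higher in Rfx2-/- testis. The 6 Rfx2-/- mice all lay below the 5 wild type mice in 5.20% of the tested genes, and all above them in 6.50%. DESeq2, run as an alternative, called 5.75% lower and 7.18% higher at the same limit, and limma voom 4.33% and 2.33%. An unadjusted p under 0.05 was given to 41.8% of the tested genes by edgeR, 44.4% by DESeq2 and 39.0% by limma voom. The median log2 fold change over the tested genes was -0.05, and -0.22 where total counts were the library sizes, so a fold change is to be read against this median.

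Dbn1 stood far higher in Rfx2-/- than in wild type testis. The 5 wild type mice, replicates 1 to 5, had 30.8, 23.1, 22.9, 18.8 and 24.2 CPM of Dbn1. The 6 Rfx2-/- mice, replicates 6 to 11, had 246, 159, 245, 226, 339 and 222 CPM. No Rfx2-/- mouse came near the wild type range, and replicate 7, the lowest of them, was still several times above the highest wild type mouse. Wild type averaged 24.0 ± 4.34 CPM (SD, n = 5), and Rfx2-/- testis 239 ± 58.2 CPM (SD, n = 6), a 9.99-fold difference as fitted (log2 fold change 3.32, with a standard error, SE, of 0.19). Dbn1 (ENSMUSG00000034675) is a minus strand gene of chromosome 13 (GRCm38), from 55473429 to 55488111. None of the exons of its protein coding transcripts overlaps such an exon of another gene in GENCODE M21, and noncoding transcripts were not examined.

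Fscn1 went the other way. Its wild type mice had 18.1, 18.8, 17.4, 16.5 and 18.7 CPM, and its Rfx2-/- mice had 8.58, 6.85, 7.26, 9.60, 8.74 and 9.36 CPM. Both genotypes formed tight, separate groups. The means were 17.9 ± 0.949 CPM (SD, n = 5) and 8.40 ± 1.11 CPM (SD, n = 6), a 2.13-fold lower level in Rfx2-/- testis as fitted (log2 fold change -1.09, SE 0.10). Fscn1 (ENSMUSG00000029581) lies on the plus strand of chromosome 5 from 142960343 to 142973185. In bulk RNA of a whole testis, fewer cells of a type and less RNA per cell cannot be told apart, and this holds for every difference given here.

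**Figure D1:**
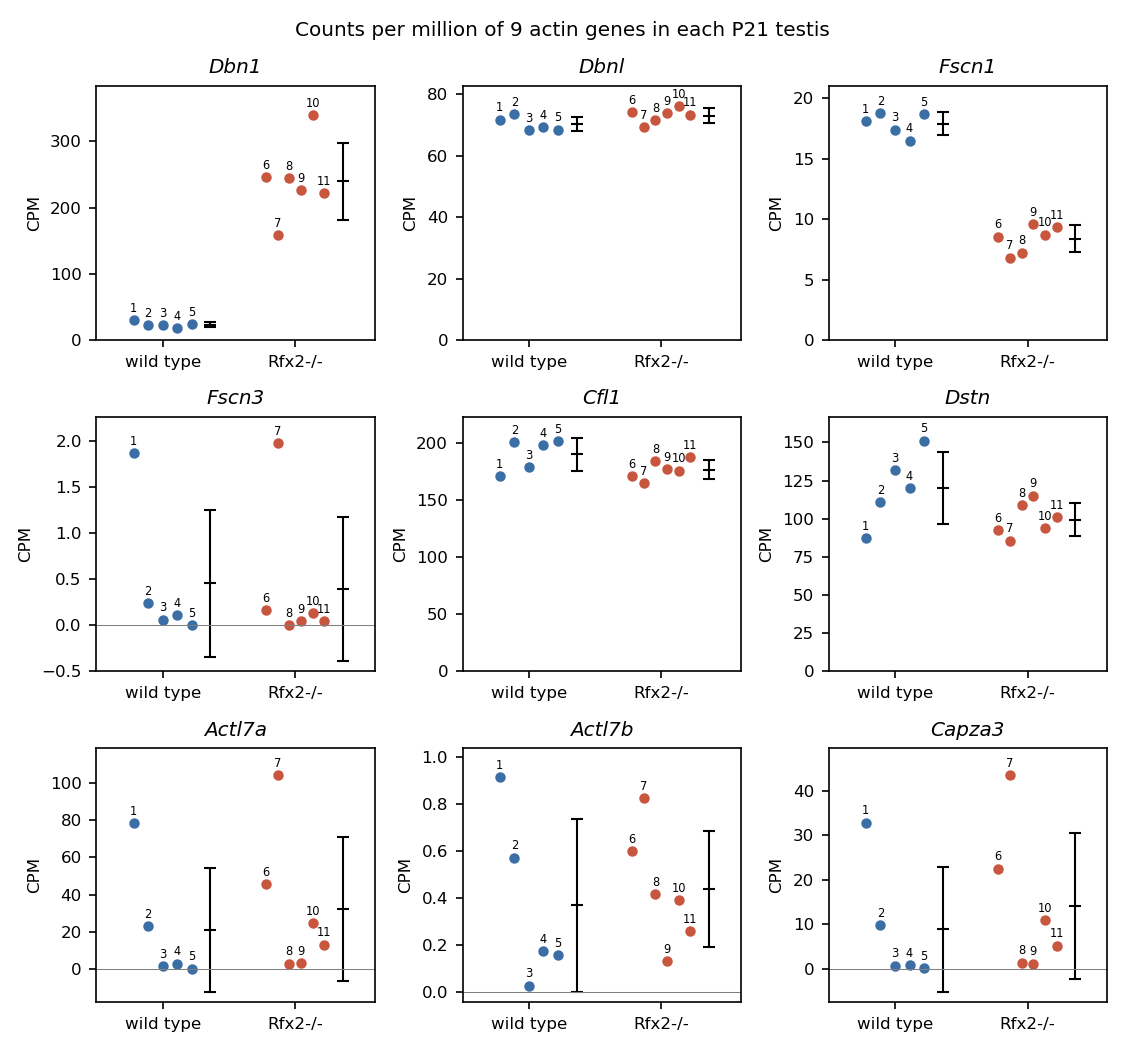
CPM (y axes, linear and on a separate scale for each gene) of the 9 members in each mouse, with replicate numbers over the points and the mean ± SD as a black bar beside each genotype. The 6 Rfx2-/- mice lie above all wild type mice for Dbn1 and below them for Fscn1, while the genotypes overlap for the other 7 genes and replicates 1 and 7 are the highest of their genotypes for Fscn3, Actl7a, Actl7b and Capza3.

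The promoters of the chosen pair, and those of both members with a single X-box site, are printed from RefSeq's GRCm38.p6 table, which held 8 of the 9 members. Capza3 was the member not matched. Each line gives the 250 bases before the RefSeq start, 5′ to 3′ on the strand of the gene, in lower case with motif matches in capitals. The windows are chr13:55488077-55488326 on the minus strand for Dbn1, chr5:142960105-142960354 on the plus strand for Fscn1, chr4:56741426-56741675 on the minus strand for Actl7b and chr6:28427651-28427900 on the plus strand for Fscn3.
Dbn1: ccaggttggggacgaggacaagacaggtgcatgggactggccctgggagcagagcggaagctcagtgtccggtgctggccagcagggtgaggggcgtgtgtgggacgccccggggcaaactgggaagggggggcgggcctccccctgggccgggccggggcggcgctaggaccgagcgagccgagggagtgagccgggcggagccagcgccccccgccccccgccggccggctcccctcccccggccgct
Fscn1: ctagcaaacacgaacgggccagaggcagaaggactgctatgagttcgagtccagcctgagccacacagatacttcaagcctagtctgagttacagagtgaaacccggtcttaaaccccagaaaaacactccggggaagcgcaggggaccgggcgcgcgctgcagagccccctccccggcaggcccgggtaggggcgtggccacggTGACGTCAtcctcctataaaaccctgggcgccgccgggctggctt
Actl7b: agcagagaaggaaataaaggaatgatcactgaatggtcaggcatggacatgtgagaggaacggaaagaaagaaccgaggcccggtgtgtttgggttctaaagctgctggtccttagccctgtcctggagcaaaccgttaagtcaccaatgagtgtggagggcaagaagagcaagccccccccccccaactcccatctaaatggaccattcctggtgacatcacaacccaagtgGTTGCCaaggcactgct
Fscn3: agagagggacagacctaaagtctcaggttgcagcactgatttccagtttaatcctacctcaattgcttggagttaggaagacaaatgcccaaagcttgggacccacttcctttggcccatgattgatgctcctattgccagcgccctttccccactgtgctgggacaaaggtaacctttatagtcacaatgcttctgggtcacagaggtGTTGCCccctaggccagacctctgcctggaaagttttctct
The windows were searched for 3 motifs on both strands, and a match describes letters only. A paired X-box, GTTNCCNNGGNAAC, with 2 facing sites, was in none of the 8 windows and in 0.374% of 32851 promoter windows of this length. The single site GTTGCC, which can also form part of such a pair, was in the Actl7b window, 17 bases before the start, and in the Fscn3 window, 41 bases before it. It was in 10.4% of all windows. The cyclic AMP response element TGACGTCA was in the Fscn1 window only, 45 bases before the start, and in 1.55% of all windows. The Dbn1 window held none of these motifs and was rich in G and C, which made up 77.2% of it against a median of 52.4% over all windows.

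The genes next to Dbn1 and Fscn1 were read for the same comparison. Prr7, on the other strand 0.275 kb from Dbn1, averaged 17.3 ± 4.38 CPM (SD, n = 5) in the wild type mice and 22.6 ± 1.39 CPM (SD, n = 6) in the mutants (log2 fold change 0.39, SE 0.15, edgeR adjusted p = 0.0843). The other nearest tested genes had log2 fold changes of -0.13 for Grk6, -0.27 for Pdlim7 and 0.33 for Dok3, and their genotypes overlapped. Beside Fscn1, Fbxl18 had a log2 fold change of -0.21, Actb -0.11, Rnf216 0.08 and Rbak -0.14, again with overlapping genotypes. Actb, beta-actin itself, averaged 506 ± 62.8 CPM (SD, n = 5) in the wild type mice and 467 ± 31.0 CPM (SD, n = 6) in the mutants (edgeR adjusted p = 0.336). EdgeR, DESeq2 and limma voom each called 0 of these 8 genes, with 3, 3 and 2 at an unadjusted p under 0.05. Among the 16 nearest tested genes around Dbn1 the log2 fold changes ran from -0.75 to 1.15, and among those around Fscn1 from -0.45 to 0.95. Of the 16 around Dbn1 edgeR called 0 (4 at an unadjusted p under 0.05), DESeq2 2 and limma voom 0, and of the 16 around Fscn1 edgeR called 0 (10 at an unadjusted p under 0.05), DESeq2 4 and limma voom 1. Over all tested genes edgeR gave an unadjusted p under 0.05 to 41.8%, and DESeq2 called 5.75% lower and 7.18% higher.

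**Figure D2:**
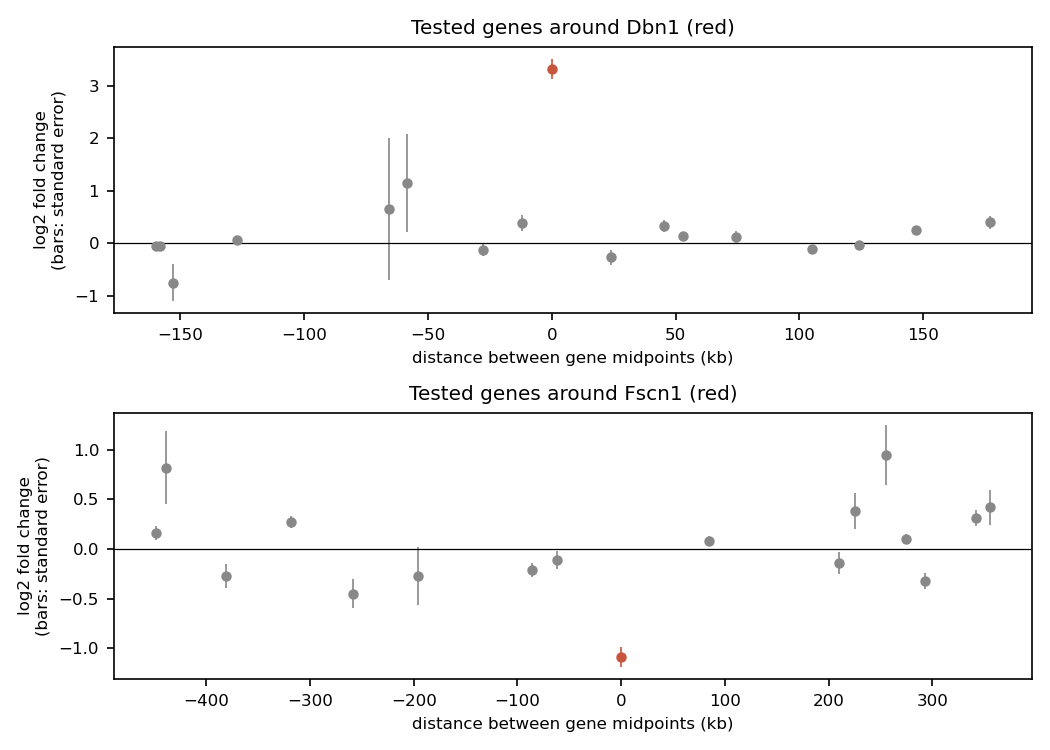
Log2 fold change between Rfx2-/- and wild type testis (y axes, bars give the standard error) of Dbn1 and Fscn1 (red) and of the 8 nearest tested genes on each side (grey), against the distance between gene midpoints in kb (x axes). Dbn1 at 3.32 and Fscn1 at -1.09 lie outside the ranges of their neighbours, -0.75 to 1.15 and -0.45 to 0.95. Both were chosen by their change in this comparison and the neighbours were not, so this is a description.

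Of the 7 other members 6 passed the filter on low counts, and edgeR called 0 of the 6, in either direction. None had an unadjusted p under 0.05 in edgeR either, the lowest being 0.0567 for Dstn. DESeq2's Wald test also called 0, with 0 at an unadjusted p under 0.05, and limma voom called 0, with 1, Cfl1, at an unadjusted p of 0.0253. With calls in 1.94% and 0.730% of all tested genes, 0 of 6 says nothing particular about these genes.

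Dbnl, which shares its actin-binding domain with drebrin and links actin to endocytosis, had nearly the same level in all 11 mice. Wild type replicates 1 to 5 had 71.7, 73.5, 68.2, 69.2 and 68.4 CPM, and Rfx2-/- replicates 6 to 11 had 74.1, 69.2, 71.6, 73.7, 76.1 and 73.3 CPM. The genotypes overlapped, with means of 70.2 ± 2.33 CPM (SD, n = 5) and 73.0 ± 2.38 CPM (SD, n = 6). The log2 fold change was 0.06 (SE 0.04, edgeR adjusted p = 0.317), and it became -0.11 with total counts as library sizes, which is above the median of -0.22 of all genes under that scaling. The SD of its log2 CPM within genotypes, pooled over both, was 0.05, and 0.381% of the tested genes varied less. The median tested gene had 0.24.

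Drebrin and its relative thus stood in different proportions in the 2 genotypes. Per kilobase of counted exon, Dbn1 made up 23.9%, 18.7%, 19.8%, 16.6% and 20.6% of the sum of Dbn1 and Dbnl in wild type replicates 1 to 5. In Rfx2-/- replicates 6 to 11 it made up 70.9%, 62.7%, 71.5%, 69.1%, 76.5% and 68.9%. This shift comes from Dbn1, the chosen gene, and is a description.

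Cfl1, the main cofilin outside muscle, stood at 171, 201, 179, 198 and 202 CPM over wild type replicates 1 to 5. Rfx2-/- replicates 6 to 11 had 171, 165, 184, 177, 176 and 188 CPM, within or just below the wild type range. The means were 190.1 ± 14.5 CPM (SD, n = 5) and 177 ± 8.31 CPM (SD, n = 6), a log2 fold change of -0.10 (SE 0.06, edgeR adjusted p = 0.211). Cfl1 was also steady between mice of a genotype, with a pooled SD of 0.09 on the log2 scale, and 7.64% of tested genes varied less.

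Dstn, the destrin or actin-depolymerising factor gene, spread more. Wild type replicates 1 to 5 had 87.2, 111, 132, 119.9 and 151 CPM, and Rfx2-/- replicates 6 to 11 had 92.5, 85.7, 109, 115, 93.7 and 101 CPM. Of the Rfx2-/- mice, replicate 7 lay just below the wide wild type range and the other 5 in its lower part. The means were 120.1 ± 23.6 CPM (SD, n = 5) and 99.5 ± 11 CPM (SD, n = 6), a log2 fold change of -0.27 (SE 0.13, edgeR adjusted p = 0.129). Reads with more than 1 position in the genome were discarded before counting, so a gene with near-identical copies in the genome, as cofilin genes have, may be undercounted.

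The genes of developing spermatids gave another picture, with far larger differences between mice of a genotype than between genotypes. Actl7a, an actin-like protein under the acrosome, stood at 78.3, 22.9, 1.68, 2.94 and 0.251 CPM over wild type replicates 1 to 5. Over Rfx2-/- replicates 6 to 11 it stood at 45.6, 104, 2.96, 3.33, 24.5 and 13.1 CPM. The highest mouse exceeded the lowest 311-fold within wild type and 35.3-fold within Rfx2-/- testis. The means were 21.2 ± 33.2 CPM (SD, n = 5) and 32.3 ± 38.7 CPM (SD, n = 6), a log2 fold change of 0.61 (SE 1.26, edgeR adjusted p = 0.717), which went to -0.24 without Rfx2-/- replicate 7 and to 2.22 without wild type replicate 1.

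Capza3, the alpha subunit of capping protein that male germ cells use, followed Actl7a mouse by mouse. Wild type replicates 1 to 5 had 32.9, 9.75, 0.653, 0.771 and 0.0943 CPM, the last of these at the floor. Rfx2-/- replicates 6 to 11 had 22.5, 43.6, 1.29, 1.11, 10.9 and 5.18 CPM. The log2 fold change was 0.68 (SE 1.30, edgeR adjusted p = 0.697), from -0.11 without Rfx2-/- replicate 7 to 2.33 without wild type replicate 1. The ratio of Actl7a to Capza3 in CPM stayed between 2.03, in Rfx2-/- replicate 6, and 3.82, in wild type replicate 4, while each gene alone varied by orders of magnitude.

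Actl7b lies 1.97 kb from Actl7a on the opposite strand of chromosome 4, between 56740005 and 56741443, and is likewise an actin-like gene of spermatids. It received 26, 17, 1, 5 and 5 reads in wild type replicates 1 to 5 and 15, 20, 9, 3, 9 and 6 reads in Rfx2-/- replicates 6 to 11. Mice with much Actl7a also had more Actl7b, but on a far lower scale. Reads on exons of different genes had been left out of the counts, and 90.9% of the bases of Actl7b's exons lie in an exon of Gm26657 on the opposite strand, a gene with 0 reads in all 11 mice. Where counting ignored strand, which the sources used here do not say, reads on the shared bases would be missing, so the level of Actl7b is uncertain. The comparison of its counts gave a log2 fold change of 0.27 (SE 0.68, edgeR adjusted p = 0.769).

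Fscn3, the fascin of the testis, was at the limit of detection and was removed by the filter on low counts. It had 53, 7, 2, 3 and 0 reads in wild type replicates 1 to 5 and 4, 48, 0, 1, 3 and 1 reads in Rfx2-/- replicates 6 to 11. Only wild type replicate 1, at 1.87 CPM, and Rfx2-/- replicate 7, at 1.98 CPM, stood clear of the other mice. The count of 0 in wild type replicate 5 allows up to 0.0943 CPM, and that in Rfx2-/- replicate 8 up to 0.139 CPM. Without the filter the log2 fold change was -0.17 (edgeR adjusted p = 0.942).

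The same order of mice appeared in the markers of round spermatids. The summed level of 9 such markers (Acrv1, Tssk1, Tssk2, Tssk6, Prm1, Prm2, Tnp1, Tnp2 and Odf1) was 448, 103, 11.7, 19.1 and 5.38 CPM over wild type replicates 1 to 5. In Rfx2-/- replicates 6 to 11 it was 195, 489, 17.2, 19.1, 106 and 58.0 CPM. By edgeR, DESeq2 and limma voom 0 of the 9 were called, with 0 at an unadjusted p under 0.05, and none was at 0 in a mouse. Over all tested genes edgeR called 1.94% lower and 0.730% higher, and gave such a p to 41.8%. The summed level ran from 5.38 to 448 CPM within wild type and from 17.2 to 489 CPM within Rfx2-/- testis. With this spread, 0 of 9 does not show that the genotypes had equal levels. Over the 11 mice the log2 CPM of Actl7a had a Pearson's r of 0.99 with the log2 of this sum (two-sided permutation p = 1e-05, the smallest that 100000 permutations can give, adjusted p = 3.50e-05 over 7 members) and a Spearman's rho of 0.99 (permutation p = 1e-05, adjusted p = 7.00e-05). Without the 2 mice farthest from the median marker level, wild type replicate 5 and Rfx2-/- replicate 7, r was again 0.99, and within the 6 Rfx2-/- mice it was 1.0 (exact permutation p = 0.00139). No value was computed within the 5 wild type mice, since r was taken only over 6 or more.

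The other spermatid members gave the same direction by the same permutation test. Capza3 had an r of 0.99 (adjusted p = 3.50e-05) and a rho of 0.97 (adjusted p = 7.00e-05), Actl7b an r of 0.86 (adjusted p = 0.00147) and a rho of 0.83 (adjusted p = 0.00365), and Fscn3 an r of 0.87 (adjusted p = 0.000245) and a rho of 0.86 (adjusted p = 0.00266). Without the same 2 mice their r was 0.99, 0.85 and 0.81. Within the 6 Rfx2-/- mice r was 0.99 for Capza3 (exact permutation p = 0.00278), 0.80 for Actl7b (p = 0.0583) and 0.88 for Fscn3 (p = 0.00278), by the same exact permutation test. Fscn3 had 48 reads in Rfx2-/- replicate 7 and 0 to 4 in the other Rfx2-/- mice, at or near the floor. Its r within these mice was not computed without replicate 7. Dstn ran against the markers, with an r of -0.93 (permutation p = 5.00e-05, adjusted p = 0.000117) and a rho of -0.93 (adjusted p = 0.000490), and r was -0.89 without the 2 mice and -0.97 within the Rfx2-/- mice (exact permutation p = 0.00278). Cfl1 had a weaker relation of that sign, with an r of -0.63 (permutation p = 0.0396, adjusted p = 0.0462) and a rho of -0.75 (adjusted p = 0.0116). Its r was -0.36 without the 2 mice, so r depended on them, and rho was not computed without them. Within the Rfx2-/- mice its r was -0.76 (exact permutation p = 0.0750). Dbnl had an r of 0.38 (permutation p = 0.241, adjusted p = 0.241) and a rho of 0.48 (adjusted p = 0.137), and within the Rfx2-/- mice its r was -0.27 (exact permutation p = 0.617). Actl7a, Capza3, Actl7b and Fscn3 are themselves known as genes of spermatids. The share of all tested genes with such a relation to the markers was not computed, so these values do not show a trait particular to the members. Actl7a alone had an r over 0.9 with 7.06% of the genes compared, after the genotype means were taken out. The part of spermatid content in these levels was not tested.

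**Figure D3:**
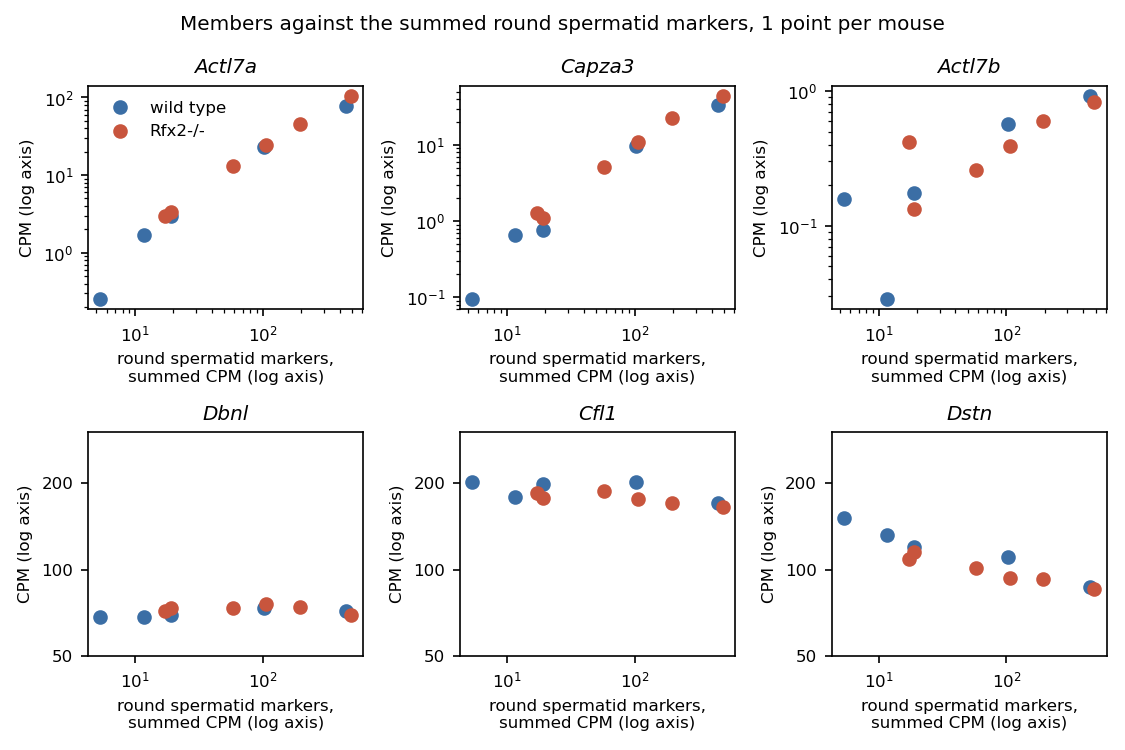
CPM of 6 members (y axes, log) against the summed CPM of 9 round spermatid markers (x axes, log), with 1 point per mouse in blue for wild type and red for Rfx2-/-. Actl7a and Capza3 rise with the markers along 1 line in both genotypes (r = 0.99 for each), Dstn descends (r = -0.93), and Dbnl stays between 68.2 and 76.1 CPM.

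With a score of these markers as a covariate, edgeR called 0 of the other members, beside 1021 genes lower and 846 higher among the 15745 tested. This 0 says nothing particular about them. The log2 fold changes were then 0.65 for Actl7a (adjusted p = 0.0948), 0.78 for Capza3 (adjusted p = 0.0730), 0.15 for Actl7b (adjusted p = 0.759), -0.18 for Dstn (adjusted p = 0.0217), -0.08 for Cfl1 (adjusted p = 0.234) and 0.05 for Dbnl (adjusted p = 0.333). Over the alternatives, an unadjusted p under 0.05 was found in 1 fit for Actl7a, 1 for Capza3, 3 for Cfl1 and 4 for Dstn, and in 0 for Dbnl and Actl7b. Over all 19 alternatives with a fitted value, the log2 fold change of Dbn1 stayed between 3.16 and 3.47 and that of Fscn1 between -1.26 and -1.04.

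Levels of different genes were compared per kilobase of the exons of protein coding transcripts. In wild type testis Cfl1 was highest of the members, with 76.0 ± 5.78 CPM per kb (SD, n = 5), before Dstn with 62.9 ± 12.4 and Dbnl with 29.9 ± 0.992, and the ranges of Cfl1 and Dstn overlapped. Actl7a came next by its mean of 14.0 ± 22, but its mice ran from 0.166 to 51.8 and it had no settled place. Dbn1 had 7.48 ± 1.35 CPM per kb and Fscn1 6.69 ± 0.355, levels that overlapped. Their order turned when the exons of all transcripts were used, with 5.31 for Dbn1 and 5.94 for Fscn1. In Rfx2-/- testis Dbn1 had 74.7 ± 18.2 CPM per kb (SD, n = 6), overlapping the range of Cfl1 at 70.7 ± 3.32, and Fscn1 had 3.14 ± 0.417. Dbn1 was then 19.4 to 32.4 times as high as Fscn1 within a mouse, against 0.948 to 1.42 times in wild type. Both genes were chosen by their change, so the shift in this ratio follows from the choice and is a description. By their means Actl7b, with its uncertain count, and Fscn3 were lowest in both genotypes. Capza3, like Actl7a, had no settled place, since its wild type mice ran from 0.0772 to 26.9 CPM per kb.

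**Figure D4:**
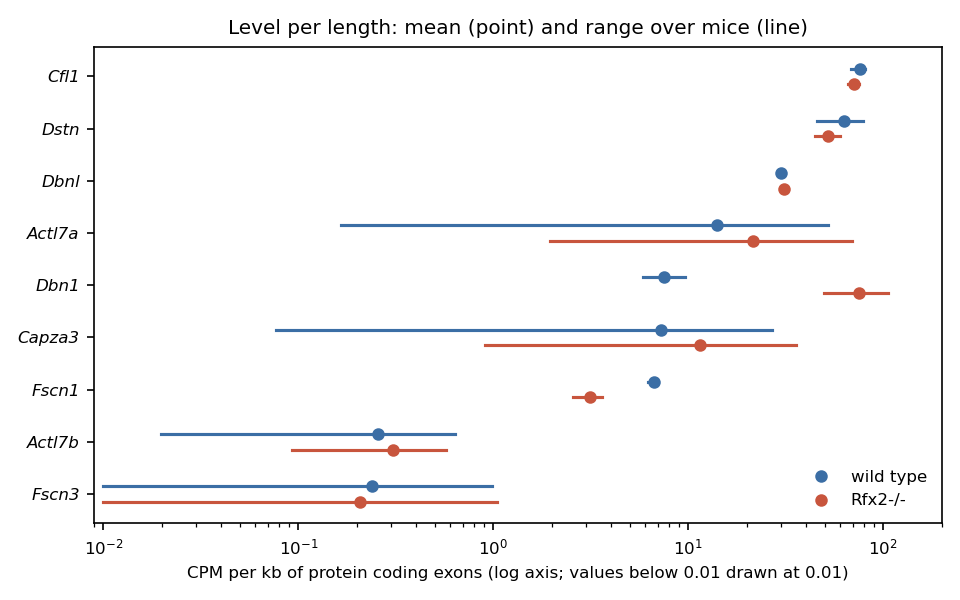
Level of each member in CPM per kb of protein coding exon (x axis, log; values under 0.01 drawn at 0.01), with the mean as a point and the range over mice as a line, in blue for wild type and red for Rfx2-/-. Dbn1 moves from 7.48 to 74.7, beside Cfl1, and Fscn1 from 6.69 to 3.14, while the lines of Actl7a and Capza3 span over an order of magnitude in both genotypes.

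The genes whose levels went most alike with a member were found by the Pearson's r of log2 CPM over the 11 mice after the genotype means were taken out, among 14425 other genes with a mean of at least 1 CPM (14426 for Actl7b, which is itself below that mean). These are given as a description, and the mice share their libraries and their spread in spermatid markers. For Dbn1 they were Mfsd9 (r = 0.902), Mbp (0.876) and Fndc1 (0.866), and Mfsd9 was the 1 gene over 0.9. For Fscn1 they were Rps7 (0.878), Tmem160 (0.876) and Endod1 (0.860), with no gene over 0.9. For Actl7b they were D1Ertd622e (0.947), Taf11 (0.938) and Ankrd13c (0.930), with 49 genes over 0.9. Actl7a, added after the data were seen, had 1018 genes over 0.9, or 7.06% of those compared, led by Dusp13, Gtsf1l and Tsga13 at 0.999 each. The pooled SD of log2 CPM within genotypes was 0.31 for Dbn1, 0.15 for Fscn1 and 2.58 for Actl7a. Small spread over counting noise limits how high r can go, and no count was made for a typical gene. The numbers of genes over 0.9 are therefore not compared between members.

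The wider actin list, set up with earlier results of these data known, held 110 genes besides the members, of which 103 were tested. In this list edgeR called 0 lower, with 30 at an unadjusted p under 0.05, and 1 higher, with 15 at an unadjusted p under 0.05. DESeq2 called 4 lower and 4 higher, and limma voom 0 and 1. Over all tested genes edgeR called 1.94% lower and 0.730% higher, DESeq2 5.75% and 7.18%, and limma voom 4.33% and 2.33%. The median log2 fold change of the list was -0.15, beside -0.05 over all tested genes. The gene called was Diaph1, a formin that nucleates and elongates unbranched filaments, which averaged 64.1 ± 5.23 CPM (SD, n = 5) in the wild type mice and 79.1 ± 2.32 CPM (SD, n = 6) in the mutants. It rose by 0.30 on the log2 scale (SE 0.06, edgeR adjusted p = 0.00957), without overlap between the genotypes. The call did not hold when any 1 of 9 mice was left out, wild type replicates 2, 3 and 5 and every Rfx2-/- mouse among them, and the adjusted p ran from 3.86e-06 to 0.0830 over the alternatives. Genes past a 2-fold change in either direction made up 2.91% of the tested list and 5.14% of all tested genes. They were Actl11, Vil1 and Spaca1, named after their values were seen, and the genotypes overlapped in each.

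**Figure D5:**
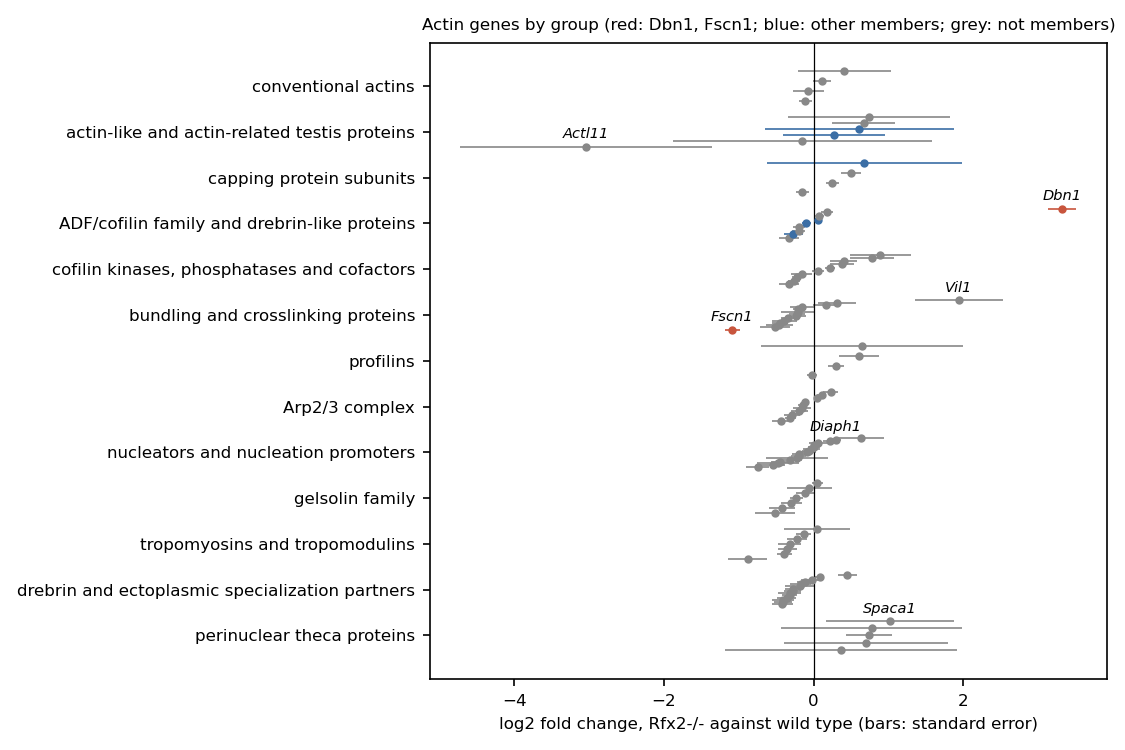
Log2 fold change between Rfx2-/- and wild type testis (x axis, bars give the standard error) of the tested genes of the actin list, by group (y axis), with Dbn1 and Fscn1 in red, the other members in blue and the rest in grey. Most genes lie near 0, Diaph1 at 0.30 is the 1 grey gene called, and the wide bars belong to genes whose mice differ strongly within a genotype.

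The families next to the members were read one by one in this list, with counts from edgeR. Among capping protein subunits, Capza1, Capza2 and Capzb had log2 fold changes from -0.15 to 0.50 and 0 of the 3 were called, with 2 at an unadjusted p under 0.05, while DESeq2 called 1 higher. Among the other ADF/cofilin and drebrin-like genes 5 were tested and 0 called, also by DESeq2 and limma voom, with 3 at an unadjusted p under 0.05 and log2 fold changes from -0.33 to 0.18. Of the 13 other bundling and crosslinking genes, the class of fascin, 0 were called, with 7 at an unadjusted p under 0.05 and a median log2 fold change of -0.22, and DESeq2 called 1 lower and 1 higher. Of the 14 partners of drebrin and of the ectoplasmic specialization, 0 were called, with 8 at an unadjusted p under 0.05 and a median of -0.28, and DESeq2 called 1 higher. In these families limma voom called 0. Over all tested genes 41.8% had an unadjusted p under 0.05, beside 43.7% of the whole list. The shares in these 4 families were 66.7%, 60.0%, 53.8% and 57.1%. In the family of Actl7a and Actl7b, the actin-like and actin-related testis proteins, edgeR gave such a p to 0 of 4 other genes. Their log2 fold changes ran from -3.04 to 0.74. EdgeR, DESeq2 and limma voom called 0 of them, with 1 at such a p in limma voom. The remaining groups of the list ran from 0 of 4 conventional actins to 7 of 10 cofilin kinases, phosphatases and cofactors at such a p in edgeR.

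Markers of the other cells of the testis were summed in the same way. The 9 Sertoli cell markers summed to 2894 to 4535 CPM in wild type and 2809 to 3323 CPM in Rfx2-/- testis. Of these 9, edgeR called 0, with 8 at an unadjusted p under 0.05, while DESeq2 called 2 lower and limma voom 1, where over all tested genes edgeR gave such a p to 41.8% and DESeq2 and limma voom called 5.75% and 4.33% lower. The 8 spermatocyte markers summed to 2921 to 5479 and 5209.5 to 6326 CPM, the 7 spermatogonial markers to 277 to 484 and 263 to 351 CPM, and the 5 peritubular myoid markers to 242 to 490.5 and 270.0 to 387 CPM. The sums of Leydig cell, macrophage and endothelial markers overlapped between the genotypes as well. None of the listed markers was at 0 in any mouse, and edgeR called 1 of them, lower. DESeq2 and limma voom each called 2 Leydig cell markers lower and 1 spermatocyte marker higher. Over all tested genes edgeR called 1.94% lower, and DESeq2 and limma voom called 7.18% and 2.33% higher. In edgeR an unadjusted p under 0.05 was found for 4 of 5 endothelial, 3 of 5 macrophage, 3 of 8 spermatocyte, 3 of 7 spermatogonial, 2 of 6 Leydig cell and 0 of 5 peritubular myoid markers. The gene called by edgeR was Hsd3b1, a steroid-making enzyme of Leydig cells named after its values were seen, at 91.2 ± 14.4 CPM (SD, n = 5) in the wild type mice and 50.2 ± 6.23 CPM (SD, n = 6) in the mutants (log2 fold change -0.86, edgeR adjusted p = 0.00126). The part of cell makeup in the values of Dbn1 and Fscn1 was not tested.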

How the data were processed

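Per the labels and the methods of the study, TruSeq libraries of total RNA from decapsulated P21 testes were sequenced on an Illumina instrument, and the submitters' processing notes name CASAVA 1.8.2, STAR 2.4 and featureCounts 1.4.6 with genome build GRCm38. The authors discarded reads with more than 1 position, counted reads on the exons of each gene and left out reads on exons of different genes. The deposited values are unnormalized counts, 1 per mouse for each of 23074 genes, and the use of strand in counting is not given in the sources used here. No 2 libraries of a genotype agreed within sampling noise (lowest chi-square per degree of freedom 3.94).

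The 11 libraries went into edgeR 4.0.16 (R 4.3.3). After filterByExpr (minimum count 10) and TMM scaling, genes were compared between genotypes with glmQLFit and glmQLFTest without covariates, and 15745 were tested. The standard error is the absolute log2 fold change divided by the square root of F. Log2 CPM used a prior count of 2. Alternatives were DESeq2 size factors, total counts, DESeq2 1.42.0, limma 3.58.1 voom with quality weights, a robust prior, other filters, an adjusted p of at most 0.05, the round spermatid marker score as a covariate, and fits that each omitted 1 mouse. The fits were tested on simulated data whose spread between mice was capped below that of Actl7a and Capza3, so the simulation does not cover these genes. Exon lengths came from GENCODE M21, and Python 3.11.15, pandas 2.3.3, SciPy 1.17.1 and matplotlib 3.10.9 made tables and plots. The members, gene lists and marker lists were chosen with earlier results of these data known. The text names all members, the genes of the actin list called at an adjusted p of at most 0.01, the 2 nearest tested genes on each side of Dbn1 and Fscn1, and the 3 genes most like Dbn1, Fscn1 and Actl7b. Replicate numbers are not shared between the genotypes.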

Additional observations from a re-analysis of the deposited data

Results flagged for a closer look

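Within a genotype, 3 values lay far from the other mice, out of 18 groups of mice examined (9 members in 2 genotypes). The limit used marks about 1 in 20 groups where values are normally distributed and independent. Spermatid members spread over orders of magnitude in CPM and rose together, so this rate does not apply to them. Fscn3 had 1.87 CPM in wild type replicate 1 against 0 to 0.235 CPM in the other wild type mice, and 1.98 CPM in Rfx2-/- replicate 7 against 0 to 0.160 CPM in the other Rfx2-/- mice. Actl7a had 78.3 CPM in wild type replicate 1 against 0.251 to 22.9 CPM in the other wild type mice. The same mice had the highest summed round spermatid markers of their genotype, 448 CPM in wild type replicate 1 and 489 CPM in Rfx2-/- replicate 7. Their part in these values was not tested.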

How the results depend on the processing

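None of the 7 other members was called under any alternative. Actl7b passed the filter in 15 of the 19 other fits and Fscn3 in 1. The log2 fold change of Dbnl turned to -0.11 with total counts as library sizes, that of Actl7a to -0.24 and that of Capza3 to -0.11 without Rfx2-/- replicate 7, and that of Actl7b to -0.03 without wild type replicate 3. The highest values, all without wild type replicate 1, were 2.22 for Actl7a, 2.33 for Capza3 and 0.93 for Actl7b. Over all genes, 305 lower and 115 higher calls became 904 and 1128 with DESeq2, 682 and 367 with limma voom, 1021 and 846 with the round spermatid covariate and 1382 and 968 at an adjusted p of at most 0.05. With a mouse left out, the lower calls ranged from 184 (without Rfx2-/- replicate 10) to 393 (without wild type replicate 1), and the higher calls from 45 to 192 (without the same mice). In the actin list, 0 lower and 1 higher calls became 1 and 0 with total counts, 4 and 4 with DESeq2, 10 and 3 with the covariate and 12 and 4 at an adjusted p of at most 0.05. The higher call was 0 with a robust prior or without the filter. With a mouse left out, both ranged from 0 to 1. The causes were not tested. No paired analysis was made, since the labels do not tell which mice, if any, were littermates. The study states that littermates of the same age were taken where possible. Depth limits Fscn3, whose counts were at or under 3 in several mice of each genotype.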

Other observations

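At an adjusted p of at most 0.05 from edgeR, 12 tested genes of the actin list without the members were lower in Rfx2-/- testis and 4 higher, or 11.7% and 3.88% of the list beside 8.78% and 6.15% of all tested genes. The genes given here are a part of those 12 and 4, and were named after their values were seen. Cobl, an actin nucleator, averaged 5.46 ± 1.06 CPM (SD, n = 5) in the wild type mice and 3.24 ± 0.463 CPM (SD, n = 6) in the mutants (log2 fold change -0.75, edgeR adjusted p = 0.0132), and the genotypes did not overlap. Actr2, a core subunit of the Arp2/3 complex that starts filament branches, averaged 55.7 ± 4.69 CPM (SD, n = 5) and 44.9 ± 2.90 CPM (SD, n = 6; edgeR log2 fold change -0.31, adjusted p = 0.0202), again without overlap. Tmod2, which caps the slow-growing end of filaments, had a log2 fold change of -0.88 (adjusted p = 0.0472) with overlapping genotypes. Of the higher genes, Mapre3, a microtubule end-binding protein that drebrin is known to bind, averaged 55.0 ± 11.4 CPM (SD, n = 5) and 75.3 ± 6.84 CPM (SD, n = 6; edgeR log2 fold change 0.45, adjusted p = 0.0417) without overlap, and Capza1, the widely expressed relative of Capza3, had a log2 fold change of 0.50 (adjusted p = 0.0373) with overlap. Of the 103 tested genes of the list, 2 were lower and 4 higher in Rfx2-/- testis without overlap between the genotypes. Over all tested genes 5.20% were lower and 6.50% higher in this way.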
